A study of Mus musculus with 6 samples.

Results

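The urea cycle genes described here are Cps1, Otc, Ass1, Asl, Arg1, Nags and Slc25a15, which encode the enzymes of the cycle, the enzyme that makes its activator and its mitochondrial ornithine carrier. A gene was taken where the platform annotation gave a probe set that symbol and no other, which held for 6 of the 7 genes, with 1 probe set each, among 19938 genes on the array. Ass1 was found on 2 probe sets, both also annotated with Gm5424, and is given apart from the others. The cells came from the livers of 3 weaned CyclinB1-GFP transgenic mice, 3.5 weeks old, and were sorted by fluorescence into GFP-positive cells, which the labels call replicating, and GFP-negative cells, which they call quiescent. Each group has 3 arrays. All arrays, those of the GFP-negative cells included, come from mice that carry the reporter, and the labels do not say which promoter drives it. Values are log2 intensities, and each difference subtracts the GFP-negative from the GFP-positive level.

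The urea cycle turns ammonia, the toxic product of amino acid breakdown, into urea for excretion, and hepatocytes are the cells that run it in full. Its opening steps take place in the mitochondrial matrix and its later ones in the cytosol, so citrulline must leave the mitochondrion and ornithine must enter it. The enzymes are most abundant in periportal hepatocytes, which receive portal blood, while a thin pericentral layer removes the remaining ammonia by making glutamine. Transcription factors of the liver, among them HNF4A and the C/EBP proteins, and the hormones glucagon and glucocorticoid are known to raise the expression of the cycle's genes.

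The promoter of Otc is shown because it holds a motif of HNF4, one of these factors, whose transcript was also measured, and that of Nags, which holds none, is shown beside it. RefSeq promoter windows, from 250 bases before to 50 bases after an annotated start, were at hand for 4 of the 7 genes (Ass1, Nags, Otc and Slc25a15, the last with 2 windows). Both sequences are read 5′ to 3′ from the plus strand of GRCm38.p6, Otc from chrX:10252055-10252354 and Nags from chr11:102145263-102145562. Capitals mark a match to a searched motif.
Otc: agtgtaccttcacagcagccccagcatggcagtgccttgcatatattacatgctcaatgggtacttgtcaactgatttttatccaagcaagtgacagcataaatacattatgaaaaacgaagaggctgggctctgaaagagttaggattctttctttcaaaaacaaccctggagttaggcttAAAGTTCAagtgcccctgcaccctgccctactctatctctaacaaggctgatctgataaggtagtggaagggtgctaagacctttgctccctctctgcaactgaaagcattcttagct
Nags: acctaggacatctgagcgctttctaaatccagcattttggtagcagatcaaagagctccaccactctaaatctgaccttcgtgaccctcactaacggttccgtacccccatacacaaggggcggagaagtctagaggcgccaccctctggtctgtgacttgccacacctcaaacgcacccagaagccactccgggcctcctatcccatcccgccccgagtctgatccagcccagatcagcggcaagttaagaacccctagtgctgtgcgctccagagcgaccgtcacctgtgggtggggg
Both strands were searched for AAAGTTCA and AAAGTCCA, sites known for HNF4, for TTGCNNAA, a C/EBP motif, for the cAMP response element TGACGTCA and for TATAAA. The window of Otc holds AAAGTTCA once, beginning at base -68 from the start, and none of the other 4 motifs. The other 4 windows, that of Nags included, hold none of the 5. Among 32851 mouse promoter windows of this length, 1.19% hold AAAGTTCA, 1.25% AAAGTCCA, 10.8% TTGCNNAA, 1.79% TGACGTCA and 13.6% TATAAA. A match is a run of letters and was not shown to be bound here.

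No urea cycle gene passed the test between GFP-positive and GFP-negative cells. By limma with Benjamini-Hochberg adjustment over all 19938 genes, 0 of 6 passed an adjusted p of 0.05, beside 1.67% of all genes, and 0 of 6 had an unadjusted p below 0.05, beside 8.8% of all genes. With the replicate number as a block the count was also 0 of 6, beside 1.78% of all genes. The groups overlapped in all 6 genes, while they did not overlap in 13.8% of all genes (6.82% higher and 6.98% lower in GFP-positive cells). The log2 differences ran from -0.26 for Asl to 0.13 for Arg1, with a median of -0.12 beside -0.03 over all genes, and 4 lay below 0 and 2 above. Its sign turned when GFP-negative number 2 alone was left out (0.01), and it was -0.03 without GFP-positive number 2 and 0.11 without both. The 95% intervals of the 6 genes reach from -0.87 to 0.51, and with 3 arrays per group a difference inside a gene's interval remains possible. Such an interval is not a limit of detection, because an adjusted p of 0.05 asks for more than an interval without 0. In each of the 6 genes the range within one group, taken across replicate numbers, was larger than the difference between the groups. In sorted bulk cells, fewer cells of a type and less RNA per cell cannot be told apart.

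**Figure D1:**
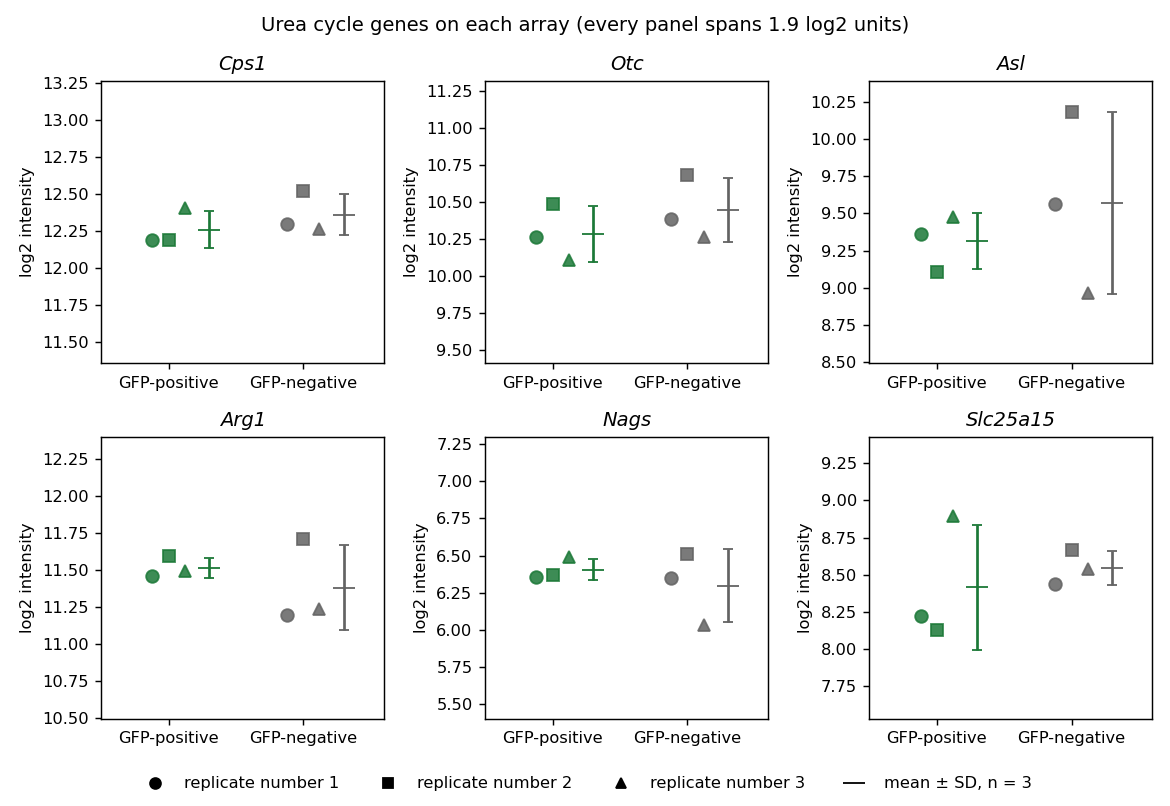
Log2 intensity of the 6 urea cycle genes that have a probe set of their own, GFP-positive arrays in green on the left and GFP-negative arrays in grey on the right of each panel, with marker shape for the replicate number and bars for mean ± SD (n = 3). The groups overlap in every panel, and GFP-negative number 2 is the highest GFP-negative array in all 6.

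The mitochondrial genes are taken first, beginning with Nags, whose enzyme makes N-acetylglutamate, the obligate activator of carbamoyl phosphate synthetase. Nags (probe set 10381528) had log2 intensities of 6.36, 6.37 and 6.49 in GFP-positive cells, against 6.35, 6.51 and 6.03 in GFP-negative cells. The GFP-positive arrays lay inside the span of the GFP-negative ones, whose lowest value was that of number 3. The means were 6.41 ± 0.07 in GFP-positive, against 6.30 ± 0.24 in GFP-negative cells (SD, n = 3 each), a log2 difference of 0.11 ± 0.16 (SE; limma adjusted p = 0.926) with a 95% interval from -0.25 to 0.46. Without GFP-negative number 3 the difference was -0.02.

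Cps1 (probe set 10347117) encodes the enzyme that fixes ammonia into carbamoyl phosphate, the entry step of the cycle. Its values were 12.19, 12.19 and 12.40 in GFP-positive cells, against 12.30, 12.52 and 12.26 in GFP-negative cells. The 6 arrays spanned 0.332 log2 units, and the highest was GFP-negative number 2. Its log2 difference was -0.10 ± 0.14 (limma adjusted p = 0.924), and the 95% interval from -0.42 to 0.22 holds GFP-positive levels between 0.746 and 1.17 times the GFP-negative ones.

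Otc (probe set 10598612), a gene of the X chromosome, encodes the enzyme that joins carbamoyl phosphate to ornithine to give citrulline. It stood at 10.26, 10.48 and 10.11 in GFP-positive cells, against 10.39, 10.68 and 10.26 in GFP-negative cells. Number 2 was the highest array and number 3 the lowest in both groups. Otc was the one member lower in GFP-positive cells in each of the 3 numbers, with differences of -0.13, -0.20 and -0.16 in numbers 1, 2 and 3. In the fit without the replicate number, the difference of -0.16 ± 0.17 did not pass (limma adjusted p = 0.886), with a 95% interval from -0.53 to 0.21. With the replicate number as a block it did not pass either (limma adjusted p = 0.899). Leaving out single arrays gave -0.26 without GFP-positive number 2, -0.07 without GFP-positive number 3, -0.25 without GFP-negative number 3 and -0.04 without GFP-negative number 2.

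Slc25a15 (probe set 10577517) encodes the carrier that exchanges ornithine for citrulline across the inner mitochondrial membrane. Its values were 8.22, 8.13 and 8.90 in GFP-positive cells, against 8.44, 8.66 and 8.54 in GFP-negative cells. GFP-positive number 3 lay above every other array, and GFP-positive numbers 1 and 2 lay below all GFP-negative arrays. It was the one member with a larger SD in GFP-positive cells (0.42, against 0.11 in GFP-negative cells). The log2 difference was -0.13 ± 0.21 (limma adjusted p = 0.934), with a 95% interval from -0.59 to 0.33. It was -0.37 without GFP-positive number 3 and 0.01 without GFP-positive number 2.

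In the cytosol, argininosuccinate synthetase, the product of Ass1, joins citrulline to aspartate. The 2 probe sets annotated with both Ass1 and Gm5424 cannot be given to either gene. On the first (10363541) the values were 11.70, 11.51 and 11.88 in GFP-positive cells, against 11.64, 11.95 and 11.66 in GFP-negative cells. On the second (10471154) they were 11.64, 11.52 and 11.82 in GFP-positive cells, against 11.58, 11.87 and 11.63 in GFP-negative cells. The groups overlapped on both, and tested among all 35512 probe sets the log2 differences were -0.05 ± 0.16 (limma adjusted p = 0.977) and -0.03 ± 0.15 (adjusted p = 0.984).

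Asl (probe set 10534120) encodes argininosuccinate lyase, which splits argininosuccinate into arginine and fumarate. It had 9.36, 9.10 and 9.48 in GFP-positive cells, against 9.56, 10.18 and 8.96 in GFP-negative cells. The GFP-negative arrays held both the highest and the lowest value, 1.22 log2 units apart, and the GFP-positive arrays spanned 0.373. Its mean was 9.31 ± 0.19 in GFP-positive, against 9.57 ± 0.61 in GFP-negative cells (SD, n = 3 each). The log2 difference of -0.26 ± 0.27 (limma adjusted p = 0.889) has the widest 95% interval of the 6, from -0.87 to 0.35. Single arrays moved it from -0.56 without GFP-negative number 3 to 0.05 without GFP-negative number 2.

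Arg1 (probe set 10368343) encodes arginase, which releases urea and returns ornithine to the cycle, and it is also known as a gene of some macrophages. Its values were 11.46, 11.59 and 11.50 in GFP-positive cells, against 11.20, 11.71 and 11.24 in GFP-negative cells. All 3 GFP-positive arrays lay above GFP-negative numbers 1 and 3 and below number 2. The means were 11.52 ± 0.07 in GFP-positive, against 11.38 ± 0.28 in GFP-negative cells (SD, n = 3 each). The log2 difference was 0.13 ± 0.17 (limma adjusted p = 0.908), with a 95% interval from -0.24 to 0.51, and single arrays moved it to 0.30 without GFP-negative number 2, 0.04 without GFP-negative number 1 and 0.06 without GFP-negative number 3. Arg2, the mitochondrial arginase of tissues outside the liver, had a difference of -0.05 ± 0.19 (adjusted p = 0.975) and lay below the array medians of 4.60 to 4.74 in all 6 arrays.

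One array stood out across the members. GFP-negative number 2 was the highest of the GFP-negative arrays in 6 of 6 genes, as it was in 31.1% of all genes, and the highest of all arrays in 5 of 6, as in 16.6% of all genes. The exception in the second count was Slc25a15. After quantile normalization the counts were 5 and 3 of 6, beside 31.3% and 16.6% of all genes. After centring each array on its median they were 6 and 5 of 6, beside 42.2% and 25.7% of all genes. Centred on each gene's own mean, the 6 genes averaged -0.09, -0.09 and 0.08 on GFP-positive numbers 1, 2 and 3, against -0.03, 0.31 and -0.18 on GFP-negative numbers 1, 2 and 3. GFP-positive number 2 was the highest GFP-positive array in 2 of 6 genes, Otc and Arg1, near the share of 40.1% over all genes, and in 3 of 6 after quantile normalization, beside 38.1%. The SD between arrays was larger in GFP-negative than in GFP-positive cells in 5 of 6 genes, with a median of 0.16 in GFP-positive, against 0.23 in GFP-negative cells, beside 0.17 and 0.18 over all genes.

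**Figure D2:**
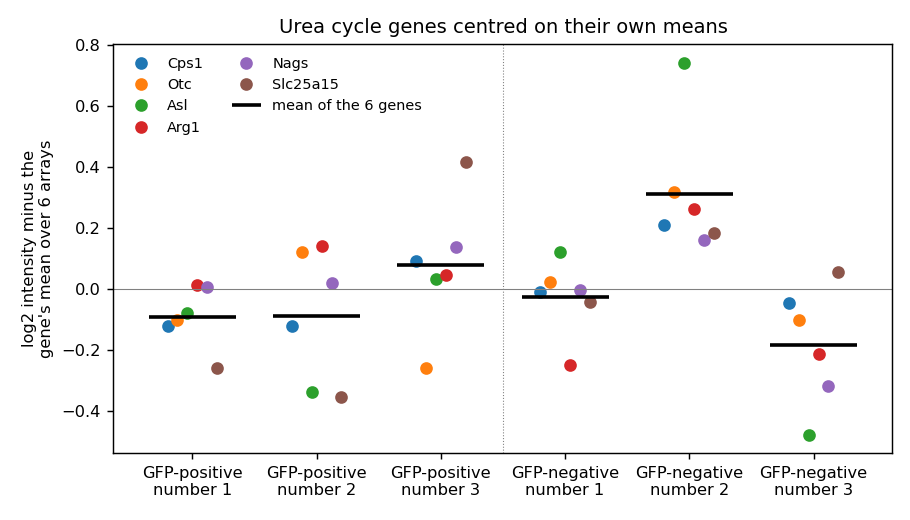
Log2 intensity of each urea cycle gene minus its own mean over the 6 arrays, by array, with GFP-positive arrays left of the dotted line and GFP-negative arrays right of it; coloured points are genes and black lines the mean of the 6. All 6 genes lie above 0 on GFP-negative number 2, where the mean is 0.31, and spread to both sides of 0 on every other array.

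Array by array, the direction differed between the replicate numbers. In number 1 the members were lower in GFP-positive cells in 4 of 6 genes, with a median difference of -0.12. In number 2 they were lower in 6 of 6, with a median of -0.26 and a range from -1.08 for Asl to -0.12 for Arg1. In number 3 they were lower in 1 of 6, Otc, with a median of 0.31 and a highest value of 0.51 for Asl. Over all genes the share lower in GFP-positive cells was 51.8%, 47.6% and 57.0% in numbers 1, 2 and 3. Number 2 was also the one with high Xist in both groups (9.80 in GFP-positive, against 9.03 in GFP-negative cells), while Xist lay between 3.73 and 4.04 on the other 4 arrays. The labels give no sex, and with 1 such number, sex, animal and array cannot be told apart.

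**Figure D3:**
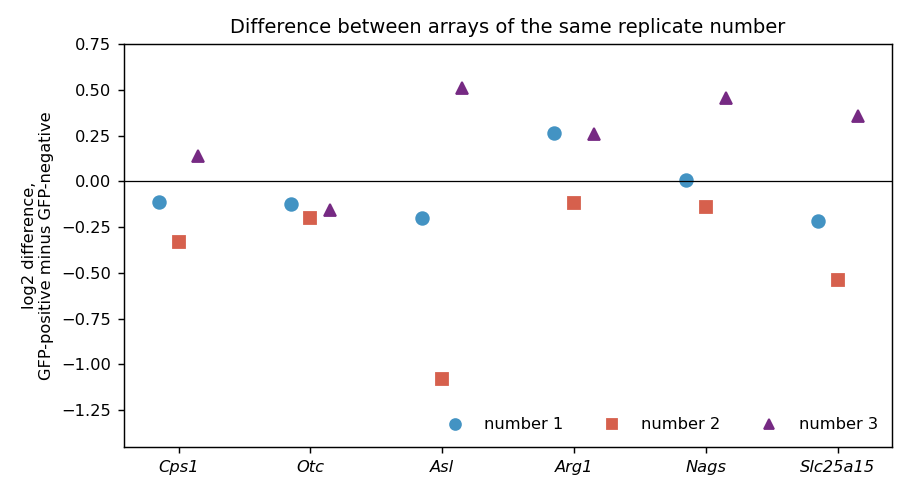
Log2 difference, GFP-positive minus GFP-negative, between arrays of the same replicate number for each urea cycle gene, with 1 point per number. Number 2 lies below 0 for all 6 genes, number 3 lies above 0 for all but Otc, and Asl runs from -1.08 to 0.51.

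Across the 6 arrays, 14 of the 15 pairs of members had a Pearson correlation above 0, with a median of 0.51. The highest was that of Cps1 and Asl (0.83), and the one below 0 was that of Otc and Slc25a15 (-0.25). These values describe 6 arrays that all genes share, and the height of GFP-negative number 2 enters each of them. Among 15424 other named genes with an SD at least that of the steadiest member, the 5 whose levels followed the members' mean most closely were Rcbtb1 (r = 0.989), Klra6 (0.988), Zfp942 (0.988), Olfr1372-ps1 (0.987) and Cpeb4 (0.985), over the same 6 arrays. Each of these 5 was highest on GFP-negative number 2, where the members' mean was also highest, so their choice made this likely in advance. Klra6, Zfp942 and Olfr1372-ps1 had group means below or near the array medians.

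Among genes next to the cycle, 3 that handle glutamine, glutamate and ornithine fell. Of 27 measured genes that feed or drain the cycle, 3 fell in GFP-positive cells and 0 rose, beside 0.115% of all genes that fell and 1.55% that rose. The list median was -0.13. The 3 genes, Slc1a2, Glul and Oat, also belong to the pericentral list, and the count was 0 once the 4 shared genes were left out, which was tried only with the data in view.

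Glul encodes glutamine synthetase, which captures the ammonia that the urea cycle leaves. It stood at 9.02, 8.35 and 9.22 in GFP-positive cells, against 10.29, 10.43 and 10.31 in GFP-negative cells, and every GFP-positive array lay below every GFP-negative one. Slc1a2, a glutamate transporter, had 5.41, 5.20 and 5.18 in GFP-positive cells, against 7.78, 7.85 and 6.88 in GFP-negative cells. Oat, the aminotransferase that diverts ornithine towards glutamate, had 8.62, 8.54 and 8.34 in GFP-positive cells, against 9.86, 9.85 and 9.52 in GFP-negative cells. By limma, Glul fell by 1.48 ± 0.21 (adjusted p = 0.0055), Slc1a2 fell by 2.24 ± 0.24 (0.00073) and Oat fell by 1.24 ± 0.15 (0.0019). Glul passed in every alternative but the one over all probe sets, where its adjusted p was 0.053.

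The urea cycle genes were set against these 3 genes. For each member and array, the log2 value of Glul, Slc1a2 or Oat was subtracted, and the groups were compared over the arrays in 18 pairs of genes. The differences of the members lay 1.22 to 1.61 log2 units above that of Glul, 1.99 to 2.38 above that of Slc1a2 and 0.99 to 1.38 above that of Oat, and the groups did not overlap in any of the 18 pairs. The exact two-sided permutation p was 0.10 in each pair, 0.10 also after adjustment over the 18, which is the smallest that 3 against 3 arrays allow. Glul, Slc1a2 and Oat are set here because they fell on these same arrays. That choice made groups without overlap, and with them the smallest p, likely in advance. The 18 pairs also share these 3 genes and are not independent. The sizes, the lack of overlap and the p are therefore a description and do not test the members.

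**Figure D4:**
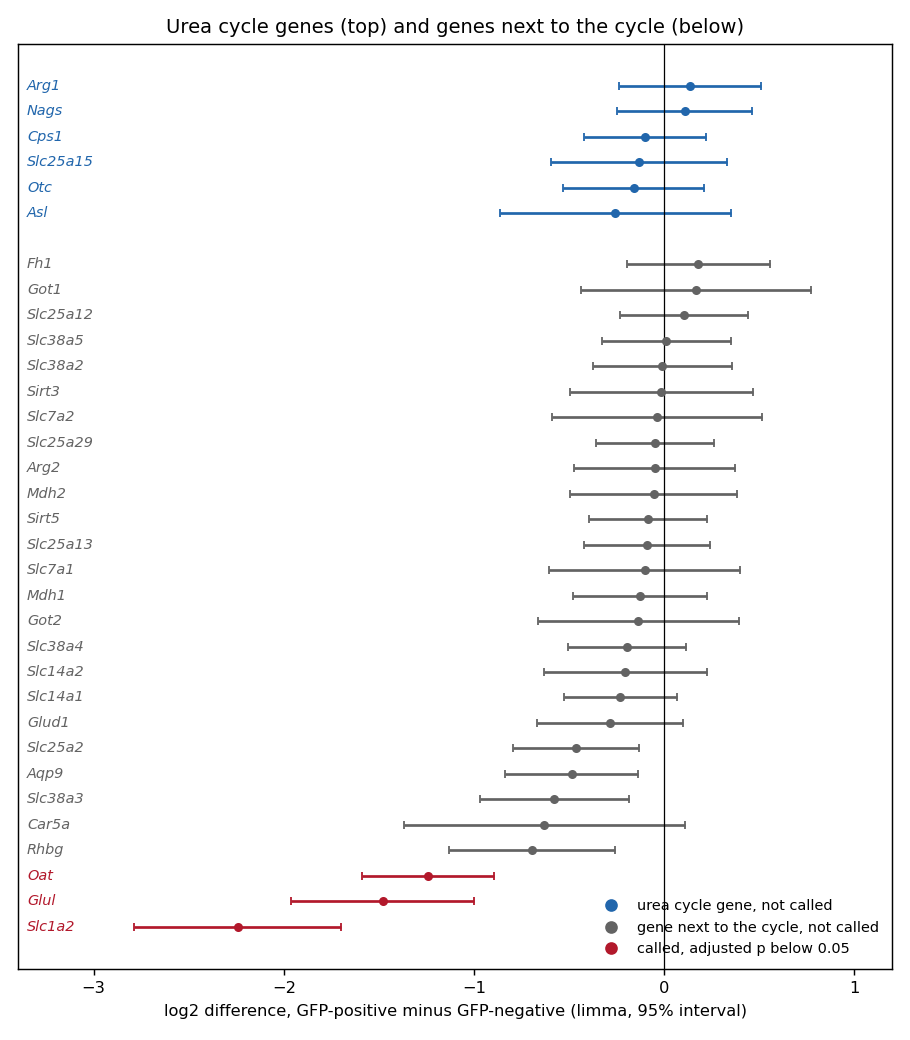
Log2 difference, GFP-positive minus GFP-negative, with its 95% interval from limma for the 6 urea cycle genes in blue at the top and 27 genes next to the cycle in grey below, called genes in red. The intervals of all 6 urea cycle genes include 0, and Slc1a2, Glul and Oat are the called genes.

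The other 24 genes next to the cycle did not pass. Over the whole list, 23 of 27 lay below 0, 7 had an unadjusted p below 0.05, beside 8.8% of all genes, and the groups did not overlap in 10, beside 13.8%. Glud1, the glutamate dehydrogenase that releases ammonia in the matrix, had 10.95, 10.43 and 10.97 in GFP-positive cells, against 11.05, 11.13 and 11.04 in GFP-negative cells. Its groups did not overlap, but number 2 held most of the gap, and the log2 difference was -0.29 ± 0.17 (limma adjusted p = 0.739). Car5a, the mitochondrial carbonic anhydrase that supplies bicarbonate to Cps1, had 7.36, 6.50 and 7.40 in GFP-positive cells, against 8.02, 8.14 and 6.99 in GFP-negative cells, which overlapped (-0.63 ± 0.33, adjusted p = 0.655). Slc25a13, the aspartate and glutamate carrier citrin, differed by -0.09 ± 0.15 (adjusted p = 0.937). Sirt5, a deacylase that acts on the Cps1 enzyme, differed by -0.09 ± 0.14 (adjusted p = 0.938). Gls2, the liver glutaminase, was not analysed here.

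No gene listed here as a possible regulator of the cycle passed either. Of 20 measured transcription factors, receptors and coactivators listed as possible regulators, 0 passed by limma (median -0.11), beside 1.67% of all genes. Unadjusted, 0 of the 20 had a p below 0.05, beside 8.8% of all genes. Whether each gene acts on the cycle was not tested. Hnf4a, whose product is known to bind motifs like the one marked above, stood at 8.45, 8.02 and 8.85 in GFP-positive cells, against 8.39, 8.67 and 8.19 in GFP-negative cells, a difference of 0.02 ± 0.22 (limma adjusted p = 0.992). The members of that list with the largest differences were Foxa3, a liver forkhead factor (-0.39 ± 0.19, adjusted p = 0.619), Nr3c1, the glucocorticoid receptor (-0.32 ± 0.16, adjusted p = 0.63), and Nfyb, a subunit of the CCAAT-binding factor NF-Y (-0.29 ± 0.15, adjusted p = 0.655).

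The cycle genes were also set beside the liver's zones. Of 21 measured periportal genes, without the cycle genes, 0 passed by limma (median 0.03), with 12 above 0 and 9 below. The largest differences were those of Aldh1b1, a mitochondrial aldehyde dehydrogenase (0.73 ± 0.33, limma adjusted p = 0.578), and Ctsc, a lysosomal protease (0.70 ± 0.49, adjusted p = 0.805). Next came Hsd17b13, a lipid droplet protein (0.55 ± 0.19, adjusted p = 0.374). An unadjusted p below 0.05 was found for 2 of the 21, beside 8.8% of all genes. They were Hsd17b13, which was higher, and Pck1, which was lower in GFP-positive cells (-0.52 ± 0.23, limma adjusted p = 0.555). On the pericentral side, 4 of 25 genes fell and 0 rose (median -0.65), beside 0.115% of all genes that fell and 1.55% that rose. In this list 24 of 25 genes lay below 0, 19 had an unadjusted p below 0.05, beside 8.8% of all genes, and 19 had groups that did not overlap, beside 13.8%. The 4 that fell were the 3 above and Cyp7a1, whose enzyme sets the pace of bile acid synthesis (9.16 ± 0.14 in GFP-positive, against 10.14 ± 0.27 in GFP-negative cells, adjusted p = 0.017). Cyp7a1 did not pass without GFP-positive number 1 (adjusted p = 0.081), number 2 (0.068) or both arrays of number 2 (0.098). The difference between these lists and the urea cycle genes, with their median of -0.12, was not tested.

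**Figure D5:**
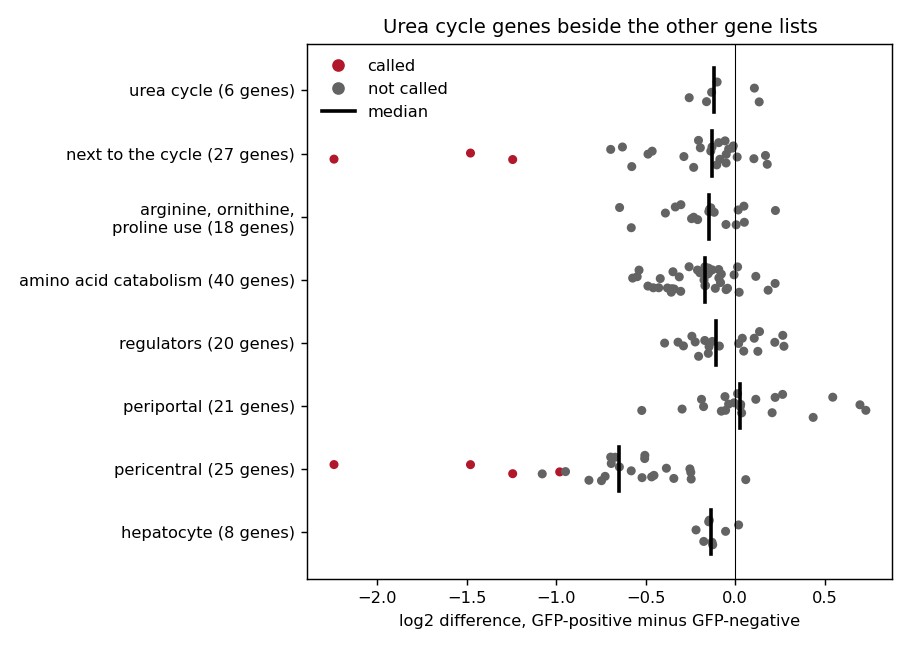
Log2 difference, GFP-positive minus GFP-negative, of every measured gene in 8 lists, with the urea cycle genes at the top; points are genes, red where called, and black bars are list medians. The medians run from -0.65 in the pericentral list to 0.03 in the periportal list, and that of the urea cycle is -0.12.

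Both fractions carried hepatocyte transcripts at high level. Alb, Ttr, Apoa1, Apob, Fgb, Ahsg, Apoh and Hnf4a, the 8 measured markers of hepatocytes, differed by -0.22 to 0.02. By limma 0 of 8 passed (lowest adjusted p = 0.739), beside 1.67% of all genes. None had an unadjusted p below 0.05, beside 8.8% of all genes. Of the 8, 7 lay below 0 and 1 above. The groups did not overlap in 4 of 8, each lower in GFP-positive cells, beside 13.8% of all genes in either direction. The mean log2 level of the 8 markers was 11.96 to 12.11 on the GFP-positive arrays, against 12.09 to 12.22 on the GFP-negative arrays. Of 16 Kupffer cell markers, whose cell type can also express Arg1, Clec4f, a Kupffer cell lectin, fell (4.91 ± 0.08 in GFP-positive, against 5.59 ± 0.07 in GFP-negative cells, adjusted p = 0.032, or 0.077 with the replicate number as a block), and that call was lost without any 1 of the 6 arrays (adjusted p = 0.070 to 0.15). The Kupffer list averaged 4.08 to 4.18 on the GFP-positive arrays, against 4.17 to 4.46 on the GFP-negative arrays, with 12 of 16 markers below the median of the arrays. By limma, 0 of 16 endothelial, 16 stellate, 7 cholangiocyte and 15 lymphocyte and neutrophil markers passed, beside 1.67% of all genes. In the same order, 2, 3, 0 and 1 had an unadjusted p below 0.05, beside 8.8% of all genes. The groups did not overlap in 3, 4, 0 and 1, beside 13.8%. These markers, the Kupffer list included, were mostly lower in GFP-positive cells in the Kupffer, endothelial and stellate lists (10, 14 and 13 of 16 below 0), and their part in the values of the cycle genes was not tested. The genes with the largest differences there were Cdh5 (-0.71 ± 0.27), Dcn (-0.86 ± 0.26), Cftr (-0.16 ± 0.27) and S100a8 (-0.97 ± 0.32), with adjusted p from 0.24 to 0.94. Of 9 erythroid markers, Car2, a cytosolic carbonic anhydrase also found in other cells, rose (5.65 ± 0.17 in GFP-positive, against 4.70 ± 0.22 in GFP-negative cells, adjusted p = 0.016), a call lost without GFP-positive number 1 or 3 or GFP-negative number 1 or 3 (adjusted p = 0.058 to 0.085). The erythroid list had no common direction, with 4 markers above 0, 5 below and a median of -0.01. An unadjusted p below 0.05 was found for 2 of the 9, beside 8.8% of all genes. They were Car2 and Car1, which was lower in GFP-positive cells (-0.65 ± 0.27, limma adjusted p = 0.511).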

How the data were processed

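Livers of 3 mice gave 3 GFP-positive and 3 GFP-negative arrays, with 10 ng of total RNA amplified per sample, per the labels' protocols. For each array the authors deposited an intensity for every probe set. RMA produced it, per the submitters' processing notes, with version and settings not given in the sources used here. They run from 1.62 to 15836, so log2 was taken, with no further normalization and no filter on low values. Array medians were 24.3 to 26.7. Having 3 arrays in a group limits how precise a difference can be.

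Of 35512 probe sets, 21789 have 1 gene symbol in the platform annotation, 1621 have several and 12102 have none. For 21698 probe sets the Entrez identifier matched a RefSeq gene, whose symbol was then used, whether or not it differed from the annotated one. Where a gene had several, the one of highest mean stood for it, which gave 19938 genes. The groups were compared in R 4.3.3 by limma 3.58.1 (functions lmFit and eBayes, with 4 residual and 5.44 prior degrees of freedom), two-sided, with Benjamini-Hochberg adjustment over all genes at 0.05. The test was checked on simulated data, where most of the smallest changes set were not called. Whether the arrays of a group, called biological replicates, cover all sources of spread is not known, and p-values measure the spread between them.

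The members, the 13 other gene lists and the tests were chosen with earlier results of these data known. Named genes were all members; of the lists around the cycle and the zones, each called gene and the 3 with the largest difference; 8 partners of the cycle whatever their values; of the marker lists, each called gene or the one with the largest difference, and all hepatocyte markers; and the 5 genes most like the members. Alternatives were other normalizations, filters, probe set rules, variance models, a pseudocount of 16, a replicate block and leaving out arrays. Python 3.11.15 was used for tables and figures (matplotlib 3.10.9, scipy 1.17.1, numpy 2.4.6, pandas 2.3.3). Motifs were sought in RefSeq promoter windows of GRCm38.p6.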

Additional observations from a re-analysis of the deposited data

How the results depend on the processing

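Under all 16 alternatives 0 of 6 urea cycle genes passed, with a lowest adjusted p of 0.431, for Asl without GFP-negative number 3. The alternatives were quantile normalization, centring on array medians, leaving out genes of low mean (13292 kept), averaging or testing all probe sets, an intensity trend, array weights, a replicate block, a pseudocount of 16, leaving out each array and leaving out both arrays of number 2. The median difference of the members ran from -0.16 to 0.11, and from -0.16 to 0.01 when single arrays were left out. When single arrays or both arrays of number 2 were left out, the difference ran from -0.173 to 0.014 for Cps1, from -0.560 to 0.155 for Asl, from -0.025 to 0.233 for Nags and from -0.372 to 0.072 for Slc25a15. Without both arrays of number 2 the sign turned for Cps1 (0.0143), Asl (0.155) and Slc25a15 (0.072). Single arrays turned it for Slc25a15 (0.01 without GFP-positive number 2), Asl (0.05 without GFP-negative number 2) and Nags (-0.0246 without GFP-negative number 3), while Otc (-0.260 to -0.041) and Arg1 (0.043 to 0.299) kept theirs. The fewer arrays are part of these settings, and the cause was not tested otherwise. Called genes over the whole table numbered 253 to 458, against 333, and the genes next to the cycle kept 3 calls except over all probe sets (2) and without the pericentral genes (0). Over all probe sets the calls of Glul, Cyp7a1, Clec4f and Car2 were lost (adjusted p = 0.053 to 0.084). The share of genes highest on GFP-negative number 2 was 16.6%, or 25.7% after centring.

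A replicate block gave 355 called genes and 0 of 6 members, and the median member difference was -0.12. The design names 3 livers as the source of both fractions and does not tie a number to a liver. Across genes, arrays of numbers 1, 2 and 3 had correlated deviations between the groups of 0.20, 0.06 and -0.05, and number 2 of the GFP-positive cells correlated best with GFP-negative number 3 (0.10). Xist and Eif2s3y set number 2 apart in both groups but do not tell numbers 1 and 3 apart.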

Other observations

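The height of GFP-negative number 2 in the urea cycle genes was also seen in other lists. Of 40 measured genes of amino acid catabolism, 32 were highest on that array, beside 16.6% of all genes. The count was 26 after quantile normalization, beside 16.6% of all genes, and 33 after centring each array on its median, beside 25.7%. Without these steps the count was 12 of 21 periportal genes, 9 of 25 pericentral genes, 3 of 8 hepatocyte markers and 8 of 16 endothelial markers. Of the lymphocyte and neutrophil markers, 0 of 15 were highest there. In the same order, the counts were 10, 5, 2, 7 and 0 after quantile normalization, where the pericentral share of 20.0% was near that of all genes. After centring they were 15, 13, 4, 10 and 1. These counts were made after the data were seen, and genes on the same arrays are not independent.

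Between the groups, 0 of these 40 amino acid catabolism genes passed by limma, beside 1.67% of all genes. The 40 had a median log2 difference of -0.17, with 35 below 0. In 4 of the 40 the unadjusted p was below 0.05, beside 8.8% of all genes. The median was -0.18, -0.70 and 0.17 in numbers 1, 2 and 3. The largest differences were those of Agxt2, a mitochondrial aminotransferase (-0.57 ± 0.16, limma adjusted p = 0.187), Amt, a component of the glycine cleavage system (-0.55 ± 0.16, adjusted p = 0.203), and Mccc1, a subunit of an enzyme of leucine breakdown (-0.54 ± 0.17, adjusted p = 0.298). Of 18 measured genes that use or make arginine, ornithine or proline, 0 passed (median -0.15). Of these 18, 2 had an unadjusted p below 0.05, beside 8.8% of all genes. Gamt, the closing enzyme of creatine synthesis, had the largest difference there, with 9.26, 8.86 and 8.96 in GFP-positive cells, against 9.67, 9.86 and 9.50 in GFP-negative cells (-0.65 ± 0.16, adjusted p = 0.124). Its groups did not overlap, which was so for 2 of the 18 genes and for 13.8% of all genes. Prodh, which starts proline breakdown, differed by -0.58 ± 0.17 (adjusted p = 0.217) and Aldh4a1, which completes it, by -0.39 ± 0.18 (adjusted p = 0.574).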
